A study of Drosophila melanogaster with 8 samples.

Results

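The wild-type transcriptome of the central nervous system (CNS) of Drosophila melanogaster larvae in the earliest larval stage, L1, was described across genes from the 3 libraries of the Canton-S strain, out of 8 libraries in the series. Canton-S is a laboratory wild-type strain for which the labels name no mutation, transgene or treatment. The series set it beside larvae mutant for genes of the ELAV/Hu family of neuronal RNA-binding proteins, and those 5 libraries were not used here. Flies were kept at 25 °C, homozygous larvae were sorted by hand with a visible marker, the CNS was dissected, and total RNA was made into strand-specific libraries. The labels name no mutation for which Canton-S larvae would have been sorted. The sex of the larvae, the number of animals per library and whether the libraries came from separate sets of animals are not given, so the spread among the libraries may be technical. Each value is a level of RNA in the whole CNS, in which fewer cells of a type and less RNA per cell cannot be told apart.

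The larval CNS consists of the brain lobes and the ventral nerve cord. At this stage most of its neurons are those born in the embryo, which run the behaviour of the larva, while neural stem cells, the neuroblasts, resume division to make the neurons of the adult. Acetylcholine is the main excitatory transmitter of the fly CNS, GABA the main inhibitory one, and glutamate is released by motor neurons and by inhibitory interneurons. Small groups of neurons release monoamines or neuropeptides, which act as modulators or hormones.

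Expression was measured as CPM, the reads of a gene per 1000000 reads counted over all genes of its library. CPM gives the share of the library that a gene takes, and a long transcript yields more reads than a short one at the same number of molecules. Levels of different genes were therefore compared as CPM per kilobase (kb) of the gene's merged annotated exons. The libraries held 31216373, 33030173 and 38056274 reads in Canton-S replicates 1, 2 and 3. A count of 0 allows up to 3 reads, which is 0.0788 to 0.0961 CPM in a single library and 0.0293 CPM over the 3 together, for counting error only. The libraries were alike across genes, with Pearson correlations of log2(CPM + 1) between 0.994 and 0.996 for the 3 pairs over 17807 genes, although genes are not independent replicates. Replicate 2 stood apart in a few genes. The 6 larval serum and fat body protein genes (Lsp and Fbp) summed to 2.40, 647 and 3.07 CPM in replicates 1, 2 and 3, and transcripts of heat-shock genes were also highest there. Without replicate 2 the count of detected genes given next was 9047.

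A gene was called detected where it reached 1 CPM in each of the 3 libraries. Of the 17807 genes listed, 8973 were detected (50.4%), and of 13883 protein-coding genes 8461 were (60.9%). A further 8085 genes (45.4%) were under 1 CPM in every library, among them 2878 (16.2%) at 0 in all 3, and the other 749 fell on both sides of 1 CPM. Among detected genes the median was 29.7 CPM. Levels of at least 100 CPM in each library were reached by 2141 genes (12% of all genes, and 2099 or 15.1% of protein-coding genes), and levels of at least 1000 CPM by 107. The single most abundant gene held 0.958% ± 0.0573 of all CPM, the 10 most abundant 4.77% ± 0.371, the 100 most abundant 20.8% ± 0.478 and the 1000 most abundant 62.5% ± 0.362 (SD, n = 3). Counted from the top, 583 genes held 50% of CPM and 3311 genes held 90%. The gene lists named below were written by hand with earlier results of these data known, so their shares detected describe the listed genes only. Each count detected below stands beside 50.4% of all genes and 60.9% of protein-coding genes, and each count at 100 CPM beside 12% and 15.1%.

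**Figure D1:**
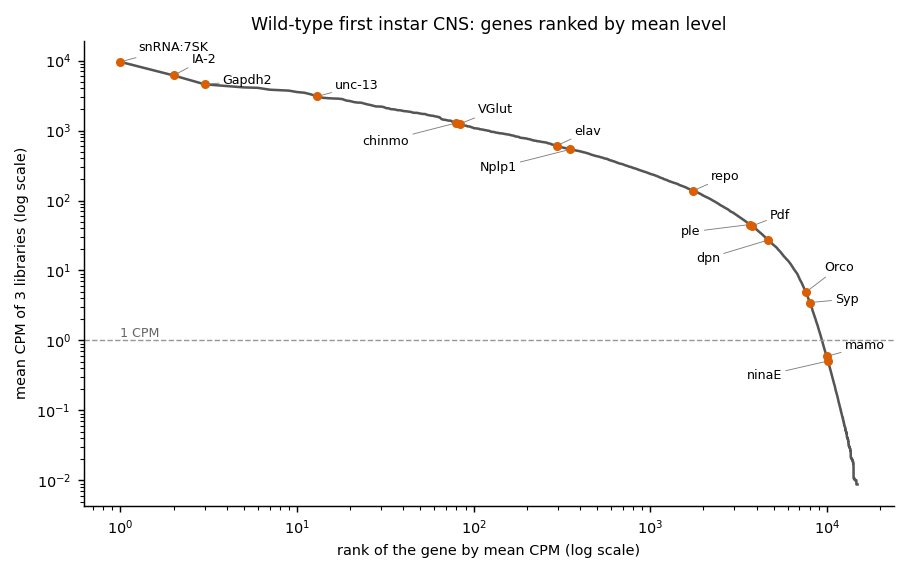
Mean CPM of the 3 Canton-S libraries (vertical axis, log scale) against the rank of the gene by mean CPM (horizontal axis, log scale), with named genes as orange points and the dashed line at 1 CPM. Levels run from 9578 CPM for snRNA:7SK at rank 1, through chinmo (1287 CPM, rank 80), repo (138 CPM) and dpn (27.3 CPM), to mamo (0.591 CPM) and ninaE (0.509 CPM) under the line.

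In the curve of level against rank, transcription factor and transmitter genes such as chinmo and VGlut lay among the 100 most abundant genes, while the photoreceptor opsin gene ninaE lay below the line of detection. The highest protein-coding gene was IA-2 (FBgn0031294, chromosome 2L, 1008378 to 1048053), which encodes a phosphatase-like membrane protein of dense-core vesicles, the carriers of neuropeptides. It stood at 6379, 5952 and 6059 CPM. Gapdh2 (X, 15868145 to 15869661), a glycolytic dehydrogenase, stood at 4400, 4677 and 4655 CPM, and the translation elongation factor gene eEF1alpha1 at 4139, 4618 and 4203 CPM. IA-2 thus took the largest share of reads of any protein-coding gene in each of the 3 libraries, while the ranges of Gapdh2 and eEF1alpha1 overlapped. Msp300, a giant nesprin that links nuclei to the cytoskeleton, came next at 3847, 4711 and 3844 CPM, but with 69810 bases of exon it was at only 59.2 CPM per kb. The next places among protein-coding genes were held by Ald1 (aldolase, 4074 ± 142 CPM), 14-3-3zeta (a phosphoprotein adaptor, 3770 ± 115), Ank2 (a neuronal ankyrin, 3718 ± 112), Eno (enolase, 3548 ± 47.7), Atpalpha (the sodium pump, 3470 ± 242) and unc-13 (vesicle priming, 3070 ± 106; SD, n = 3).

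The 100 most abundant protein-coding genes were sorted into functions by hand after their values were seen. Sugar and energy metabolism gave 15 of the 100 and 3.35% of all CPM, the cytoskeleton and its motors 12 genes and 2.73%, and vesicle release and recycling 11 genes and 2.43%. Ion pumps, exchangers and channels gave 10 genes (1.94%), translation 9 (1.69%), gene regulation and RNA binding 10 (1.50%), signalling 7 (1.49%), transmitter synthesis, transport and receptors 7 (1.04%), adhesion 6 (1.02%) and chaperones 2 (0.471%). The last 11 (1.54%) were not assigned. The transmitter group of the 100 held Gad1, Gat, Gs2, Rdl, Vmat, VGlut and nAChRalpha5, and the vesicle group held IA-2, unc-13, cpx, Sap47, Syt1, Syn, nSyb, brp, shi, Cadps and RhoGAP100F.

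Ranking per kb gave another set of genes. The 100 highest protein-coding genes by CPM had a median of 5635.5 exon bases and held 5 cytoplasmic ribosomal protein genes. The 100 highest by CPM per kb had a median of 1146.5 exon bases and held 62 ribosomal protein genes, and 35 genes were in both sets. Gapdh2 led per kb at 3172 ± 106 CPM per kb, ahead of RpL41, a ribosomal protein gene of 320 exon bases, at 2756 ± 129, and Obp44a at 2656 ± 167 (SD, n = 3). Obp44a belongs to the odorant-binding protein family and stood at 2678, 3037 and 2861 CPM, so its libraries overlapped those of RpL41 per kb.

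All 13 glycolysis genes were detected (60.9% of protein-coding genes were), and 12 exceeded 100 CPM in each library (15.1% did). Together the 13 held 2.41% ± 0.0291 of all CPM (SD, n = 3). Per kb the order ran from Gapdh2 through Gapdh1 (1528 CPM per kb), Ald1 (1070), Eno (954) and Ldh, lactate dehydrogenase (923), to PyK (825), with Eno and Ldh overlapping between libraries. The lowest was Gpdh1, which leads to glycerol phosphate, at 31.5 CPM per kb. Glycogen phosphorylase, GlyP, varied little, at 2947, 2939 and 2938 CPM. All 16 translation factor genes were detected, and eIF5 was the lowest at 5.63 CPM.

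Of 92 cytoplasmic ribosomal protein genes 84 were detected (60.9% of protein-coding genes were), and 80 exceeded 100 CPM in each library (15.1% did). Together the 92 held 5.08 ± 0.180% of all CPM (SD, n = 3). In each of the 10 pairs of related ribosomal protein genes examined, 1 member took most of the reads. RpS5a stood at 739.9 CPM and RpS5b at 15.4, RpS19a at 495 and RpS19b at 1.18, RpS10b at 402 and RpS10a at 0.326, RpS15Aa at 589 and RpS15Ab at 16.6. RpL37a stood at 503 CPM and RpL37b at 0.0470, RpL22 at 362 and RpL22-like at 0.0496, and RpS28b at 513 and RpS28a at 0.0101. RpL34b (379 CPM) and RpL34a (86.1 CPM) were closer to each other, as were RpS14a (337 CPM) and RpS14b (74.6 CPM). Members of near-identical sequence share reads that the authors' counting could split or lose, so the values of such pairs are uncertain, among them RpS14a and RpS14b, and RpL10Aa, which was listed at 0 beside 792 CPM for RpL10Ab.

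Protein-coding genes took 96.2 ± 0.358% of CPM (SD, n = 3) and genes annotated as ncRNA 1.87 ± 0.290%. The highest gene of all was snRNA:7SK, the RNA that holds the elongation factor P-TEFb inactive, at 9619.6, 10130.1 and 8986 CPM. Of 115 rRNA genes 0 were detected and 111 were at 0 in every library, as were the 38 mitochondrial genes. Ranks and shares of CPM therefore describe the other genes, and why these classes are near 0 was not tested. The RNA of the signal recognition particle differed between libraries, with 7SLRNA:CR42652 at 5120.0, 5639 and 744 CPM and its relative 7SLRNA:CR32864 at 1029, 888 and 316 CPM in replicates 1, 2 and 3. Both were lowest in replicate 3, and how reads were split between these similar genes is uncertain. The long non-coding RNA lncRNA:CR42862 stood at 3327, 3254 and 3275 CPM, and lncRNA:Hsromega, a nuclear RNA known from heat-shock puffs, at 1640.0, 2357 and 2236 CPM, lowest in replicate 1. The dosage compensation RNAs lncRNA:roX1 and lncRNA:roX2, which coat the male X chromosome, stood at 1491, 1416 and 1444 CPM and at 179, 169 and 176 CPM, a ratio per kb of 2.08, 2.10 and 2.05. Sxl, the sex determination switch, stood at 458 CPM, msl-2, which it represses in females, at 45.3 ± 2.42, tra at 6.87 ± 0.629 and dsx at 0.197 ± 0.145 CPM (SD, n = 3). Of 259 pre-miRNA genes 11 were detected, of 312 tRNA genes 5, and of 111 replication-dependent histone genes 1. These genes are short or have many copies that share reads, and their low counts cannot be read as absence of expression.

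Marker genes of neurons and glia were read in the labelled tissue. Their lists were written by hand with earlier results of these data known, so these counts are no independent check of the label. All 17 pan-neuronal genes were detected (50.4% of all genes were), and 16 of them exceeded 100 CPM in each library (12% of all genes did). Per kb, nrv3, a subunit of the sodium pump, led at 535 ± 8.57 CPM per kb, above nSyb, neuronal synaptobrevin, at 389 ± 18.5, and the vesicle protein gene Sap47 at 369.5 ± 15.6 (SD, n = 3). The ranges of nSyb and Sap47 over libraries overlapped. Of the ELAV/Hu genes, fne was at 106 CPM per kb, elav at 56.7 and Rbp9 at 0.940, and the ratio of fne to elav per kb was 1.79, 1.89 and 1.94 in the 3 libraries. All 22 glial genes were detected as well. Gs2, glutamine synthetase, led them per kb at 719 ± 40.0 CPM per kb, followed by the GABA transporter Gat at 596 ± 31.1, the astrocyte gene alrm at 459 ± 41.4 and the pump subunit nrv2 at 383 ± 11.7 (SD, n = 3). None of these neighbours overlapped in range. The pan-glial transcription factor repo stood at 147, 126 and 141 CPM, and the glial determinants gcm and gcm2 at 3.50 ± 0.292 and 2.34 ± 0.451 CPM.

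All 24 genes of SNAREs and vesicle release were detected (60.9% of protein-coding genes were), and 22 exceeded 100 CPM in each library (15.1% did). Together the 24 held 2.37 ± 0.0533% of CPM (SD, n = 3). After nSyb and Sap47 the highest per kb were Rop, the Sec1/Munc18 protein (363), Syn, synapsin (302), the GTPase gene Rab3 (283) and the calcium sensor Syt1 (249 CPM per kb). Rop overlapped Sap47 and Syn overlapped Rab3. The SNARE gene Snap25 was lower per kb than its relative Snap24, with a ratio of Snap24 to Snap25 of 1.90, 1.53 and 1.76 in the 3 libraries. The priming factor unc-13 (136 CPM per kb) and the active zone genes brp (107) and Rim (56.0) lay below these vesicle proteins. The lowest per kb were Nsf2 (27.0) and Sytalpha (26.7), which overlapped. Of 17 genes of vesicle endocytosis 15 were detected, among them shi, dynamin, at 221 CPM per kb, and stnA and stnB were listed at 0.

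All 18 sodium and calcium channel genes and 21 of 22 genes in the potassium channel list were detected, beside 60.9% of protein-coding genes. The sodium channel para stood at 1298, 1237 and 1302 CPM and the presynaptic calcium channel cac at 1062, 1087 and 1094 CPM. Per kb, Mid1 led at 119.6 CPM per kb, cac (90.7) and unc80, of the sodium leak channel complex (88.9), overlapped, and para was at 78.4. In the potassium channel list Nca, a calcium sensor protein of the neurocalcin family, led at 125 CPM per kb. It was followed by the channel genes Shal (103), slo (90.9), Shaw (74.5) and Shab (61.7), each with a range apart from the next. Sh, the Shaker channel, was at 25.2 and the inward rectifier Irk1 at 0.370 CPM per kb. The gene sand, a leak channel known for its role in sleep, was at 2.02, 1.48 and 0.683 CPM and so was not detected in replicate 3.

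The vesicular transporters VGlut, Vmat, VAChT and VGAT, each of which loads 1 class of transmitter, were compared per kb. VGlut, for glutamate (2L, 2400295 to 2410662), stood at 222, 221 and 213 CPM per kb, and Vmat, for monoamines (2R, 13513132 to 13534251), at 177, 169.9 and 169. VAChT, for acetylcholine (3R, 18705501 to 18718916), stood at 135, 134 and 138 CPM per kb, VGAT, for GABA (2R, 14198478 to 14201249), at 125, 111 and 117, and prt, a related transporter, at 27.2, 26.7 and 29.9. The order VGlut, Vmat, VAChT, VGAT, prt was the same in 3 of 3 libraries, and no neighbours in it overlapped in range. This is an order of transporter RNA and does not rank the transmitter systems. The synthetic enzymes Gad1 (512 CPM per kb) and ChAT (82.9) lay above the monoamine enzymes Ddc (68.7), Trh (47.6) and ple (11.9). The ratio of VGlut to VAChT per kb was 1.64, 1.65 and 1.54 and that of VAChT to VGAT 1.08, 1.20 and 1.18 in replicates 1, 2 and 3. VAChT and ChAT are nested in 1 locus with a shared first exon, and 8.54% of the exon bases of VAChT and 15.1% of those of ChAT lie in exons of another gene on the same strand. Divided by the other exon bases alone, VAChT came to 148 CPM per kb, between Vmat and VGAT as before, and ChAT to 97.6. For Vmat, 26.2% of exon bases lie in exons of another gene on the opposite strand, and the strand setting of counting is not given. Vmat was not computed without these bases, so its place below VGlut holds for division by all exon bases only.

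**Figure D2:**
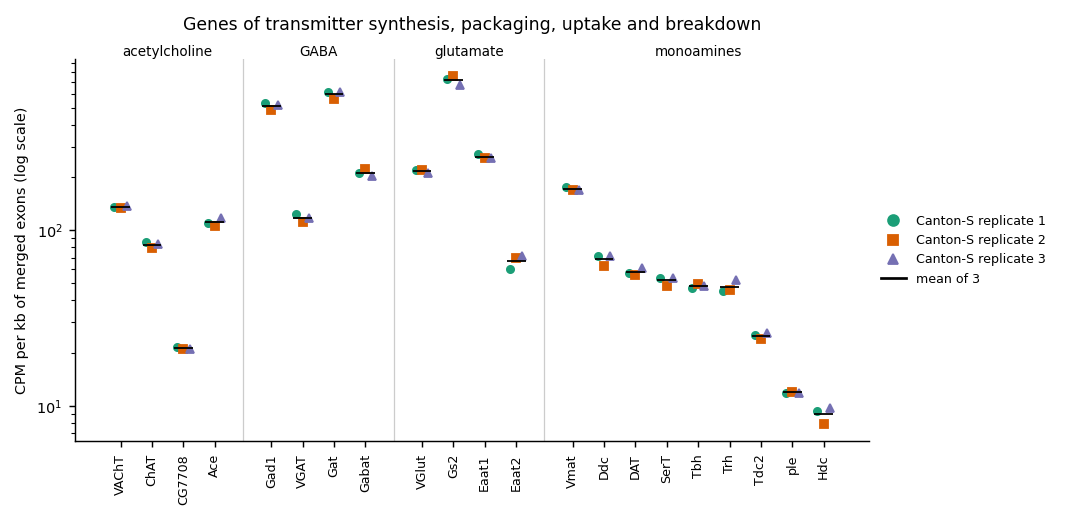
CPM per kb of merged exons (vertical axis, log scale) of genes for making, loading, taking up and breaking down transmitters, by system, with 1 symbol for each Canton-S library and a line at the mean of 3. Gs2 (719), Gat (596) and Gad1 (512 CPM per kb) are the highest and ple (11.9) and Hdc (9.01) the lowest, and the libraries lie close together beside the distances between genes.

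For acetylcholine, ChAT, the synthetic enzyme, was at 82.9 ± 3.23 CPM per kb over all its exon bases, Ace, the esterase, at 111 ± 5.93, and CG7708, a choline transporter, at 21.3 ± 0.356 (SD, n = 3). All 10 nicotinic receptor subunits were detected, beside 60.9% of protein-coding genes. nAChRalpha5 was the highest at 117 CPM per kb and 1073, 1077 and 1154 CPM. Below it stood nAChRbeta1 (97.2 per kb), nAChRalpha2 (88.5) and nAChRalpha1 (84.3), each overlapping the next, and the lowest was nAChRbeta3 at 2.11, 1.97 and 2.47 CPM. Of the muscarinic receptors, mAChR-A stood at 415 ± 38.8 CPM, mAChR-B at 110.4 ± 11.9 CPM and mAChR-C at 0, 0.0606 and 0.0526 CPM.

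For GABA, all 10 genes were detected, beside 60.9% of protein-coding genes. The synthetic enzyme Gad1 stood at 533, 483 and 520.0 CPM per kb, 4.27, 4.34 and 4.43 times VGAT, the degrading enzyme Gabat at 213 ± 9.24, and Rdl, the main ionotropic GABA receptor, at 158 ± 3.90 CPM per kb (SD, n = 3). Rdl took 1464, 1407 and 1399.7 CPM, while the related subunits Lcch3 and Grd took 76.2 ± 2.89 and 13.6 ± 1.73 CPM. The metabotropic receptors GABA-B-R1, GABA-B-R2 and GABA-B-R3 stood at 88.3, 127 and 40.5 CPM per kb.

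For glutamate, 20 of 21 genes were detected, beside 60.9% of protein-coding genes. The transporter Eaat1 was at 263 ± 8.21 CPM per kb and Eaat2 at 66.9 ± 6.01 (SD, n = 3). Among receptors, the NMDA-type subunit Nmdar1 (135 CPM per kb), the inhibitory channel GluClalpha (110.0) and the AMPA-type subunit GluRIA (79.4) led, each apart from the next. The 5 GluRII subunits, which form the receptor of larval body wall muscle, all lay just above the line of detection, with means between 1.54 and 4.23 CPM. The kainate-type gene clumsy stood at 0.0961, 0.182 and 0.0526 CPM.

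For the monoamines, 15 of 16 genes of synthesis and transport and 17 of 19 receptors were detected, beside 60.9% of protein-coding genes. Ddc, which acts in the synthesis of dopamine and serotonin, was at 68.7 CPM per kb, and the dopamine transporter DAT at 57.8. The serotonin transporter SerT was at 51.9, the octopamine enzyme Tbh at 48.2 and the neuronal tryptophan hydroxylase Trh at 47.6, each overlapping the next. The tyramine enzyme Tdc2 was at 25.1, ple, tyrosine hydroxylase, at 11.9 and Hdc, which makes histamine, at 9.01 CPM per kb, none overlapping. The rate-limiting enzymes of the serotonin and dopamine pathways stood at 98.2, 99.2 and 114 CPM for Trh and 45.1, 45.8 and 45.3 CPM for ple, a ratio per kb of 3.80, 3.78 and 4.41. Of the receptors, 5-HT1A led at 97.2 CPM per kb, above the octopamine receptor Octbeta1R (78.3) and the dopamine receptors Dop2R (64.6) and DopEcR (62.7), of which the last pair overlapped. The histamine-gated channels were near 0, with HisCl1 at 0.352, 0.636 and 0.578 CPM and ort, the receptor of lamina neurons, at 0, 0.0606 and 0.0526 CPM.

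Of 51 neuropeptide and peptide hormone genes in a hand-written list 42 were detected (82.4%, beside 50.4% of all genes and 60.9% of protein-coding genes). Levels above 100 CPM in each library were reached by 6 of the 51 (12% of all genes and 15.1% of protein-coding genes reached 100 CPM). Nplp1, a precursor of several brain peptides (2R, 25032377 to 25040377), led on both scales, at 509, 535 and 567 CPM and 199 ± 10.8 CPM per kb. Proc, which encodes the motor peptide proctolin, stood at 251, 229 and 266 CPM and 126 ± 9.42 CPM per kb. Ilp2, the insulin-like peptide of the insulin-producing cells of the brain, stood at 81.3, 95.9 and 84.6 CPM, but with its 670 bases of exon came to 130.3 ± 11.4 CPM per kb (SD, n = 3) and overlapped Proc. Next per kb were the diuretic hormone Dh31 (87.4) and myosuppressin, Ms (86.8), which overlapped, then Capa (78.4) and corazonin, Crz (76.7), which also overlapped. Pdf, the peptide of clock neurons, was at 65.3, 69.1 and 56.7 CPM per kb and Hug, a peptide of feeding circuits, at 57.8, 62.7 and 63.0, and their ranges overlapped.

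**Figure D3:**
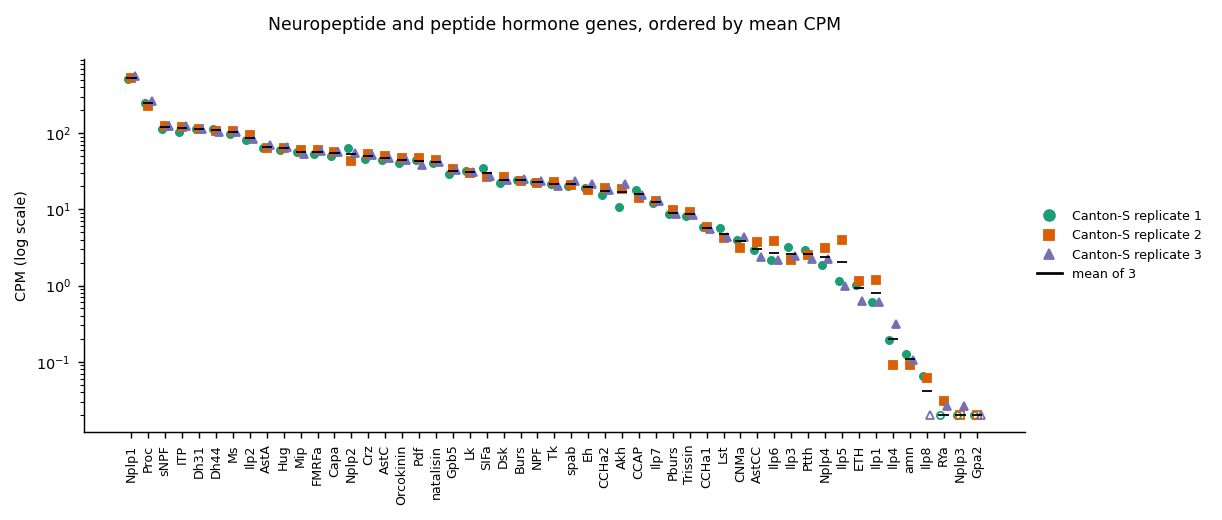
CPM (vertical axis, log scale) of 51 neuropeptide and peptide hormone genes ordered by mean CPM, with 1 symbol for each Canton-S library and a line at the mean of 3, where open symbols at the bottom stand for a library at 0. Levels run from Nplp1 (537 CPM) to Gpa2 (0 in every library), and Akh and Ilp5 are among those with a wide spread between libraries.

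Among the insulin-like genes, Ilp7 stood at 12.6 ± 0.460 CPM (SD, n = 3) and Ilp5, like Ilp2 a peptide of the insulin-producing cells, at 1.15, 3.91 and 0.972 CPM. Ilp5 was highest in replicate 2 and under 1 CPM in replicate 3. Akh, the adipokinetic hormone of the corpora cardiaca, stood at 10.8, 18.5 and 21.8 CPM, and these cells belong to the ring gland, which lies on the brain. The ecdysis hormone ETH, made by Inka cells on the tracheae, stood at 1.03, 1.15 and 0.631 CPM. Ilp1 stood at 0.609, 1.18 and 0.604 CPM, Ilp4 at 0.192, 0.0908 and 0.315, RYa at 0, 0.0303 and 0.0263 and Nplp3 at 0, 0 and 0.0263 CPM. Gpa2, which the annotation places on an unplaced scaffold, was listed at 0 in every library.

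All 12 genes of peptide processing and dense-core vesicles were detected (60.9% of protein-coding genes were), and 9 exceeded 100 CPM in each library (15.1% did). Per kb, IA-2 (598) was followed by 7B2, the chaperone of a prohormone convertase (285), Pal2, a lyase of peptide amidation (206), Cadps, a priming factor of dense-core vesicles (186), amon, the convertase itself (165), and Phm, the amidating monooxygenase (98.9 CPM per kb), each apart from the next. dimm, a transcription factor of peptidergic cells, stood at 17.9, 17.7 and 14.1 CPM. Of 39 peptide and hormone receptor genes 36 were detected and 4 exceeded 100 CPM in each library, beside 60.9% and 15.1% of protein-coding genes. The insulin receptor InR took 453, 465 and 687 CPM, highest in replicate 3, and at 47.0 CPM per kb it overlapped Dh44-R1 (47.0). The receptor of Pdf, Pdfr, was at 1.10 CPM per kb. AkhR, the adipokinetic hormone receptor known from fat body, stood at 0.256, 0.242 and 0.236 CPM, PK1-R at 0.224, 0.394 and 0.394 and AstC-R1 at 0.224, 1.06 and 0.762 CPM, and these were the 3 receptors not detected.

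Of 228 transcription factor genes in hand-written lists 200 were detected (87.7%, beside 50.4% of all genes and 60.9% of protein-coding genes). The lists were written with earlier results of these data known, so 87.7% is not the share of all transcription factors. Of the 228 genes 48 exceeded 100 CPM in each library. Their median was 29.8 CPM, and together the 228 held 2.17 ± 0.0636% of CPM (SD, n = 3). The largest shares of reads were those of zfh2, a zinc finger homeodomain factor (4, 501810 to 540874), at 1446, 1438 and 1422 CPM, the BTB factor chinmo (2L, 1651258 to 1704682) at 1319.9, 1255 and 1287 CPM, and lola, a BTB factor with many isoforms, at 1176, 1140.1 and 1133 CPM. scrt, a neuronal factor of the Snail family, stood at 879.8, 969.6 and 1016 CPM and onecut at 765, 774 and 739.6 CPM. Per kb, Xbp1, a factor of the unfolded protein response, led at 142 ± 5.25 CPM per kb (SD, n = 3). It was followed by zfh2 (116), onecut (113), scrt (105), exd (105) and chinmo (102), of which each overlapped the next.

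**Figure D4:**
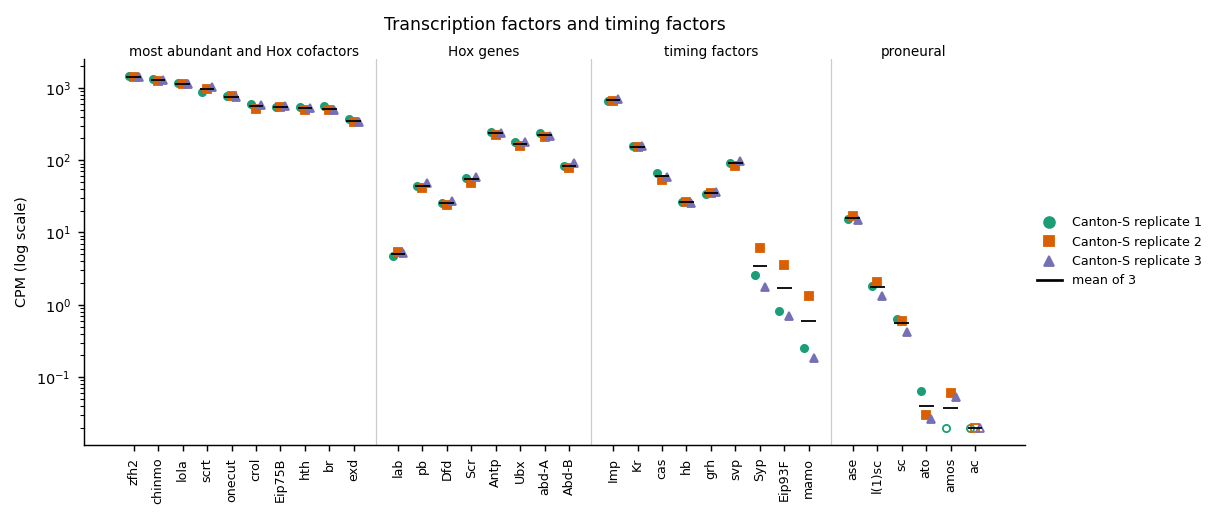
CPM (vertical axis, log scale) of transcription factor genes and the timing genes Imp and Syp in 4 groups, with 1 symbol for each Canton-S library and a line at the mean of 3, where open symbols at the bottom stand for a library at 0. The group labelled proneural also holds the neuroblast factor ase. Imp (673 CPM) lies far above Syp (3.48), Eip93F (1.69) and mamo (0.591 CPM), which are highest in replicate 2, and the Hox genes run from lab (5.09 CPM) to Antp (234 CPM).

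All 8 Hox genes and their cofactors exd and hth were detected. Hox genes give the segments of the body, and of the nerve cord, their identity. In their order along the body axis from the front, lab stood at 4.77, 5.36 and 5.12 CPM, pb at 44.6 ± 3.78, Dfd at 25.5 ± 1.69, Scr at 54.4 ± 5.60, Antp at 234 ± 8.53, Ubx at 170.0 ± 11.4, abd-A at 220.1 ± 14.6 and Abd-B at 84.1 ± 6.23 CPM (SD, n = 3). Per kb, abd-A (40.2) and Ubx (39.7) overlapped and lay above Antp (29.5), which lay above pb (12) and Scr (11.9), which overlapped. Dfd (9.31), Abd-B (7.13) and lab (1.67 CPM per kb) followed, each apart from the next.

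The 22 temporal factors covered a range of means from 0.591 CPM for mamo to 1287 CPM for chinmo, with a median of 30.8 CPM, and 20 of them were detected (90.9%, beside 60.9% of protein-coding genes). In neuroblasts and the neurons they make, Imp and chinmo are known for early fates, and Syp, Eip93F and mamo for later ones. Imp stood at 655, 662 and 701 CPM. Syp stood at 2.56, 6.12 and 1.76 CPM, Eip93F at 0.833, 3.54 and 0.709 CPM and mamo at 0.256, 1.33 and 0.184 CPM. Each of these 3 late genes was highest in replicate 2, where the Lsp and Fbp genes (2.40, 647 and 3.07 CPM) and heat-shock genes were also highest, and whether these differences are linked was not tested. Among embryonic temporal factors Kr stood at 154 ± 2.23, cas at 60.1 ± 6.47, grh at 35.1 ± 0.764 and hb at 26.2 ± 0.605 CPM (SD, n = 3).

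Among 21 nuclear receptors 19 were detected (90.5%, beside 60.9% of protein-coding genes), with Eip75B, an ecdysone-induced receptor, at 543, 547 and 554 CPM, and Hr83 (0.169 ± 0.105 CPM) and eg (0.132 ± 0.0737 CPM) under 1. Of 57 homeodomain genes listed for neuron identity 52 were detected (91.2%), with toy, a Pax6 factor of the brain, at 56.0 CPM per kb. Of 32 listed bHLH genes 23 were detected (71.9%), a share nearer that of all protein-coding genes. These are shares of hand-written lists, not of whole gene families. The neuroblast factor ase, also given below, stood at 15.8 ± 1.01 CPM. The proneural genes, which start neural lineages, were low, with l(1)sc at 1.74 ± 0.394 CPM, sc at 0.556 ± 0.118 and ato at 0.0402 ± 0.0208. The level of amos was 0.0377 ± 0.0329 CPM, and ac was at 0 in every library. Other transcription factors that were not detected included the mesoderm gene twi and the muscle gene nau, the gut genes GATAe, bin and byn, the Dorsocross genes Doc1, Doc2 and Doc3, and ftz, sens and Sox15. Of 11 clock genes 9 were detected (81.8%). per stood at 22.8 ± 1.57 CPM and tim at 9.00 ± 1.05, while Clk stood at 0.865, 1.70 and 1.52 CPM and cry at 0.833, 0.484 and 0.683 CPM.

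Of 26 genes of neuroblasts and asymmetric division 25 were detected, beside 60.9% of protein-coding genes. The neuroblast transcription factors dpn, wor and ase stood at 28.0, 27.1 and 26.7, at 35.0, 36.5 and 34.5 and at 15.5, 17.0 and 15.1 CPM, the adaptor mira at 73.4 ± 7.73 and insc at 12.7 ± 0.349 CPM (SD, n = 3). Higher genes of this list, such as brat (499 CPM) and pros (192 CPM), also act in other cells of the CNS. All 32 cell cycle genes were detected, with a median of 13.6 CPM beside 29.7 CPM for all detected genes. Top2, a topoisomerase, E2f1, a regulator of S phase, and its partner Dp were the only ones above 100 CPM in each library, at 132 ± 18.5, 128 ± 12.3 and 113 ± 14.7 CPM. PCNA, the replication clamp, was at 9.42, 16.7 and 7.44 CPM, highest in replicate 2, and aurA, a mitotic kinase, at 1.47 ± 0.321 CPM.

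Of 37 RNA-binding genes of the nervous system 36 were detected, beside 60.9% of protein-coding genes. pAbp, the poly(A)-binding protein, was at 442 CPM per kb, and the RNA-binding proteins shep and Hrb27C, which overlapped, at 147 and 146. nos stood at 0.448, 0.939 and 0.526 CPM. Of 51 genes of cell surface recognition 50 were detected, 43 of them above 100 CPM in each library (15.1% of protein-coding genes were). CadN, N-cadherin, stood at 2650.2, 2593 and 2663 CPM and 183 CPM per kb, above Ten-m, a teneurin of partner matching (106), Sema2b, a guidance cue (103), and Nrx-1, neurexin (97.8), each of which overlapped the next. Nlg1, a neuroligin known from the neuromuscular junction, was at 4.34 ± 0.877 CPM and the phosphatase Ptp52F at 0.530 ± 0.0919 CPM. All 21 dpr genes and all 11 DIP genes, immunoglobulin proteins that bind each other at synapses, were detected. 16 dpr genes and 4 DIP genes exceeded 100 CPM in each library, and the medians were 51.3 CPM per kb for dpr and 27.3 for DIP genes. dpr12 was at 113 ± 2.78 and DIP-iota at 7.92 ± 0.901 CPM per kb.

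Markers of other tissues were read in each library, and their shares detected are set beside 50.4% of all genes and 60.9% of protein-coding genes. All 20 muscle genes were detected (100%), and their sum of 6196, 7053 and 5807 CPM in replicates 1, 2 and 3 was mostly Msp300. Mhc, muscle myosin, stood at 477, 460.2 and 347 CPM. The 15 hemocyte genes, of which 12 were detected (80%), summed to 1139, 984 and 1483 CPM, most of it from the extracellular matrix genes Col4a1 (395, 315 and 481 CPM), vkg (367, 285 and 441 CPM) and Ppn (197, 205 and 313 CPM). The blood cell genes Hml, NimC1 and He stood at 45.2, 38.7 and 71.0, at 1.51, 1.51 and 1.89 and at 0.737, 0.454 and 0.920 CPM. Of 10 ring gland genes 8 were detected (80%), with sums of 326, 347 and 371 CPM. Most of their mean sum of 348 CPM came from 1 gene at a mean of 261 CPM, and their median was 8.62 CPM. The ecdysone synthesis gene phm stood at 22.6, 33.6 and 35.8 CPM. Of 9 fat body genes 2 were detected (22.2%), with sums of 582, 1272 and 503 CPM, highest in replicate 2 through the Lsp and Fbp genes, none of which reached 1 CPM in all 3 libraries, while the lipoprotein gene apolpp stood at 577, 621 and 496 CPM. Of 19 gut genes 4 were detected (21.1%), with sums of 86.0, 19.9 and 29.2 CPM, highest in replicate 1. The salivary glue genes Sgs3 and Sgs5 were at 0 in every library. Of 19 eye genes 5 were detected (26.3%), among them norpA, a phospholipase C, at 291 ± 10.8 CPM, and of 13 germline genes 4 (30.8%), among them bol at 430.2, 432 and 461 CPM. How much RNA of other tissues adds to the other results was not tested.

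**Figure D5:**
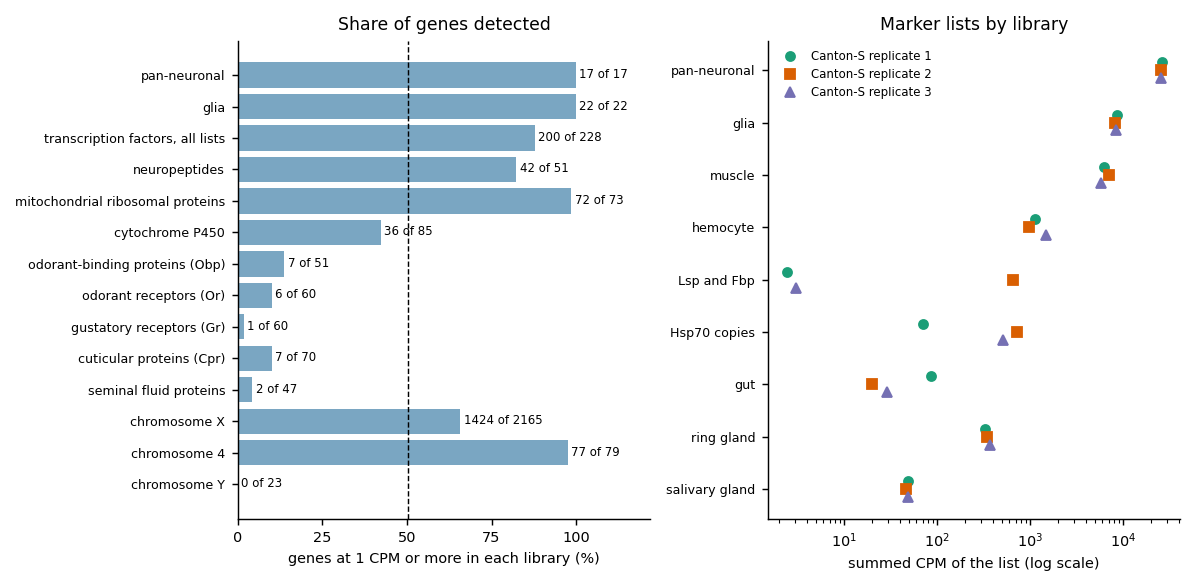
Left, share of genes at 1 CPM or more in each library (%, bars) for gene lists, families and the protein-coding genes of 3 chromosomes, with the dashed line at 50.4% for all genes. Right, summed CPM (horizontal axis, log scale) of marker lists in each Canton-S library, where the Lsp and Fbp genes stand at 647 CPM in replicate 2 and at 2.40 and 3.07 CPM in replicates 1 and 3.

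Families that serve the external senses, the cuticle and reproduction were mostly near 0. Of 60 odorant receptor genes 6 were detected (10%), of 60 gustatory receptor genes 1 (1.67%; Gr28b, 2.54 CPM), and of 66 ionotropic receptor genes 8 (12.1%), with Ir47a at 23.8 CPM, beside 50.4% for all genes. Orco, the shared olfactory co-receptor, stood at 5.22, 4.33 and 5.15 CPM. Of 51 odorant-binding protein genes 7 were detected, and Obp44a and Obp99a (398 ± 31.7 CPM) were the highest of them. Of 70 Cpr cuticle genes 7 were detected, of 26 Tweedle cuticle genes 3, of 24 Osiris genes 1, of 47 seminal fluid protein genes 2 and of 3 yolk protein genes 0. Of 85 cytochrome P450 genes 36 were detected (42.4%), a share below 50.4% of all genes and 60.9% of protein-coding genes. Of 73 mitochondrial ribosomal protein genes 72 were detected.

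Protein-coding genes of chromosome 4, a small and mostly heterochromatic chromosome, had a higher median level than those of all chromosomes together. There 77 of 79 genes were detected (97.5%, beside 60.9% of all protein-coding genes), 51 exceeded 100 CPM in each library (15.1% of all protein-coding genes did), and the median was 219 CPM, beside 6.93 CPM for all protein-coding genes. Per kb the median was 56.0 CPM per kb on chromosome 4 and 4.20 for all. Its genes include unc-13, Gat, zfh2, onecut, the calcium pump gene PMCA (1624 CPM) and CaMKII, a kinase of synaptic plasticity (1555 CPM). Their exons are longer, with a median of 4336 bases beside 1734 for all protein-coding genes. On X 65.8% of 2165 genes were detected, on the arms of chromosomes 2 and 3 between 57.7% and 61.2%, and on Y 0 of 23.

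A value of 0 was also frequent where genes share exons. Of 358 protein-coding genes with at least 95% of their exon bases in exons of another gene on the same strand, 345 (96.4%) were at 0 in every library, and 1 was detected. Of 9319 genes with no exon overlap 943 (10.1%) were at 0 and 56.2% were detected, and of 86 genes overlapped to that extent on the opposite strand alone, 13 (15.1%) were at 0. stnA, stnB and Hsp22 each have 100% of their exon bases in same-strand exons of another gene, and their 0 cannot be read as absence of expression. The 38 genes of the mitochondrial genome were also listed at 0 in every library, which cannot be read as absence of expression either.

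Genes differed between the wild-type libraries by more than counting error. A chi-square test of the recovered reads, with Benjamini-Hochberg adjustment over the 8973 detected genes at 0.05, called 6254 (69.7%). The test compares these 3 libraries, not conditions, and at this depth it calls small differences, since 3109 of the called genes had a coefficient of variation (CV) under 10%. Among 6601 genes with a mean of at least 10 CPM the median CV was 6.92%, and 53 genes reached 50%. Of these 53, 28 were highest in replicate 2, 14 in replicate 3 and 11 in replicate 1. The lowest library was replicate 1 for 26 of them, replicate 3 for 16 and replicate 2 for 11. Among the widest were Lsp2, a larval serum protein of fat body, at 0.160, 167 and 0.342 CPM, Fbp1, a fat body protein, at 0.769, 254 and 1.10 CPM, and Obp99b at 0.128, 45.4 and 0.105 CPM, each highest in replicate 2. The 6 Hsp70 copies, which share reads, summed to 70.7, 732 and 509 CPM, while Hsp83 stood at 1256, 3021 and 1161 CPM and Hsp23 at 57.4, 273 and 139 CPM. These chaperone genes were also highest in replicate 2. Pebp1 (38.3, 0.636 and 6.41 CPM) and the digestive protease gene Jon25Bi (29.4, 1.76 and 3.63 CPM) were highest in replicate 1, and Thor, the translation inhibitor 4E-BP (12.8, 20.1 and 60.3 CPM), was highest in replicate 3. The CV depended on level, with a median of 15.3% for detected genes with a mean of 1 to 10 CPM, 8.21% from 10 to 100 CPM, 5.15% from 100 to 1000 CPM and 3.86% from 1000 CPM up. Beside these medians, the vesicular transporter genes VGlut (2.15%) and Vmat (2.66%), both above 1000 CPM, and VAChT (1.74%) lay below the median of their level, and VGAT (5.66%) above it.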

How the data were processed

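RNA-seq of 3 Canton-S libraries was used, and the 5 mutant libraries of the series were not. The deposited values are CPM per gene, made by the authors. Reads were aligned with HISAT2 to dm6, per the submitters' processing notes, and a TruSeq Stranded Total RNA kit was used, per the labels' protocols. The program, annotation and strand setting of the counting step were not given in the sources used here, nor were software versions. Values of every library were whole multiples of 1 read for 100% of entries within a tolerance of 0.01, and the reads recovered in this way were used for the chi-square test (2 degrees of freedom) alone.

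Means, SDs, ranks and shares were computed from the deposited CPM. Exon lengths, coordinates and gene types came from Ensembl BDGP6.54, release 115, a build of the same genome release as dm6, and 97 of 17807 genes had no length there. For 55 rows the symbol was filled from the gene ID. No genotypes were compared, because this describes a single group. Gene lists (41 lists with 964 entries, of which 963 matched) were written by hand, and the members and lists were chosen with earlier results of these data known.

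Genes named were the 30 highest of all and of protein-coding genes by mean CPM, in each list the 8 highest per kb and those under 1 CPM in any library (or every member of lists of 12 or fewer), the 10 largest CVs at a mean of 10 CPM or more, and the 4 highest markers of each other tissue. Not every such gene is printed, and genes named outside this rule were chosen after their values were seen. The chi-square test was tested on simulated data. Work was done in Python 3.11.15 with pandas 2.3.3, scipy 1.17.1 and matplotlib 3.10.9, and in R 4.3.3 with edgeR 4.0.16 and DESeq2 1.42.0 for alternative scalings.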

Additional observations from a re-analysis of the deposited data

How the results depend on the processing

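Of 68 alternative values for 11 results, 58 stayed within their limit and 10 moved. For levels, shares and correlations the limit was the SD over libraries or their pairs. Levels without 1 library and medians over libraries cannot leave that limit, and some changes of length left the value as it was. The limit for counts was wide, since 12491 genes above 0 in each library stayed within it, against 8973 detected. The number 58 is therefore no measure of robustness. The 100 most abundant genes held 20.0% when members and total were protein-coding genes only, against 20.8%. Ribosomal protein genes held 5.28% of protein-coding CPM, 13.9% of the summed CPM per kb of all genes and 17.4% of that of protein-coding genes, the last chosen after seeing the data, against 5.08% of CPM. Vmat stood at 191 CPM per kb of its longest transcript, against 172, and VAChT at 148 without shared exon bases, an alternative also chosen after seeing the data, against 136. The mean correlation of log2 values was 0.991 with a pseudocount of 0.1, 0.996 with 5 and 0.992 among detected genes, against 0.995. With 1 library left out, genes varying among libraries numbered 4039 (without replicate 3) to 4933, against 6254, a test with fewer libraries. The other ranges with 1 library left out were 9047 to 9135 detected genes, 42 to 44 neuropeptide genes, 200 to 201 transcription factors, 20.6% to 21.0% for the top 100, 4.99% to 5.17% for ribosomal protein genes, and 134 to 137, 114 to 121, 217 to 221 and 169 to 174 CPM per kb for VAChT, VGAT, VGlut and Vmat. Detected genes numbered 9642 at 0.5 CPM and 7344 at 5 CPM. No paired analysis was possible because only 1 group was described. Lengths assume that all annotated exons are used, and a gene at 0 may have a level of up to 3 reads.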
